A study of Mus musculus with 16 samples.

Results

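Activity-regulated and immediate early genes were examined in the medial prefrontal cortex of adult mice by RNA-Seq. A list of 35 symbols was matched to the gene identifiers of the expression table, and all 35 were found among its 18424 genes. Tissue came from 16 male C57BL/6N mice at postnatal day 120 (P120), which carried either 2 intact copies of Arid1b (wild type, WT) or 1 copy with a truncating mutation at exon 5 (HT). The study describes this mutation as a TT insertion at the start of exon 5, and its methods give a deletion together with the TT insertion. Arid1b is a subunit gene of a chromatin remodeling complex. Nursing dams drank 0.2% saccharin water alone (Veh) or with fluoxetine (Flx), a serotonin reuptake inhibitor, at 0.1 mg/ml, so that pups received the drug through milk from P3 to P21 and none afterwards. The 4 combinations (WT-Veh, HT-Veh, WT-Flx, HT-Flx) held 4 mice each, 1 library per mouse. The mutation came from 1 CRISPR line and was not limited to a cell type, and the dose that reached a pup is not given in the sources used here. Values are normalized read counts, that is, estimated reads per gene after removal of differences in library size.

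Immediate early genes are transcribed within minutes when calcium or growth factor signals reach the nucleus of a neuron, without the need for new protein. Kinases act on factors already bound at the promoter, CREB and SRF among them, and the first products include transcription factors of the Fos, Jun, Egr and Nr4a families, phosphatases that shut the signal down, and proteins such as Arc that act at synapses. In cortex their RNA is short-lived and follows the recent experience of the animal, while effectors such as Nptx2 respond more slowly.

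Promoter windows from RefSeq (GRCm38.p6, 250 bases before and 50 after a transcription start) were available for 26 of the 35 genes, and 7 of them are shown. Each of the 7 holds a CRE core, so they do not stand for the whole list. The windows of Dusp6, Fosl2, Gadd45b, Gadd45g, Ier5, Jun, Jund and Tiparp hold none and are not shown. Bases outside the windows were not searched, so a motif missing from a window may lie farther from the start. Capitals mark each CRE core, the CREB-type letters TGACG or its other strand CGTCA, which join as TGACGTCA in a full site, and no CArG box, the SRF-type motif, lay in these 7 windows.
Fosb, chr7:19309996-19310295, minus strand: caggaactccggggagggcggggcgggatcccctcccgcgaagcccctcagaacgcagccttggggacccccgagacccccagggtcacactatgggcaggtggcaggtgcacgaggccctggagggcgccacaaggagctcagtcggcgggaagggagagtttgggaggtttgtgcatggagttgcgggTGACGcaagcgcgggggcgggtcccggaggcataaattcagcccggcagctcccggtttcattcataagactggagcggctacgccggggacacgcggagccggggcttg
Rgs2, chr1:144004100-144004399, minus strand: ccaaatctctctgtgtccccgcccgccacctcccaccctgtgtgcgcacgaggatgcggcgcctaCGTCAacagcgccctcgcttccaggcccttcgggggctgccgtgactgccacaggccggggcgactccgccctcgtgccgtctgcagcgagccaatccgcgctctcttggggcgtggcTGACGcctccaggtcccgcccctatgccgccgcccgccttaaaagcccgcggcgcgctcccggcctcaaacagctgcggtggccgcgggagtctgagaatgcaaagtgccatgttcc
Nr4a2, chr2:57123954-57124253, minus strand: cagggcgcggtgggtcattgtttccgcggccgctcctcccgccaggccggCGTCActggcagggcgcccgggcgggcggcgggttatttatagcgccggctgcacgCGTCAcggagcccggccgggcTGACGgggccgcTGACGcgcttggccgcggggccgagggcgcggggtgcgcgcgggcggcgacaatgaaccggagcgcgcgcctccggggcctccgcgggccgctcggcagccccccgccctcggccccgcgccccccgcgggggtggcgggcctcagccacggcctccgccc
Npas4, chr19:4989922-4990221, minus strand: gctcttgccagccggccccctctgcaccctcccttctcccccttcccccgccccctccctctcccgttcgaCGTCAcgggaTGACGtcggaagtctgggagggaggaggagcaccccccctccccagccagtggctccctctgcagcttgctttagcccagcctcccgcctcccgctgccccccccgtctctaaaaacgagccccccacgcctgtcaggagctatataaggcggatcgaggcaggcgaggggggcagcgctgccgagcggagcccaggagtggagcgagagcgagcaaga
Fos, chr12:85473640-85473939, plus strand: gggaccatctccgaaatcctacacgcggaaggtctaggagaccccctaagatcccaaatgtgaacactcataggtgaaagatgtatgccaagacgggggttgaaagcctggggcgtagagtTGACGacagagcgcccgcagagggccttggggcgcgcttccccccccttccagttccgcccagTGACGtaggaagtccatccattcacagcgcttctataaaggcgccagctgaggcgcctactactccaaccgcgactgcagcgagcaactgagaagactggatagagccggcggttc
Nr4a1, chr15:101266596-101266895, plus strand: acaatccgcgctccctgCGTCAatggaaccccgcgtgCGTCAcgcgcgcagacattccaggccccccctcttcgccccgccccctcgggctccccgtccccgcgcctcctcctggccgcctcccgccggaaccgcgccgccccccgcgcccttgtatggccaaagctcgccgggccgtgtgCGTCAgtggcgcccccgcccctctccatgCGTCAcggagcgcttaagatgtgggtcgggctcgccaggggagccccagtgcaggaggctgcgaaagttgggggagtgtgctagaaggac
Dusp1, chr17:26508423-26508722, minus strand: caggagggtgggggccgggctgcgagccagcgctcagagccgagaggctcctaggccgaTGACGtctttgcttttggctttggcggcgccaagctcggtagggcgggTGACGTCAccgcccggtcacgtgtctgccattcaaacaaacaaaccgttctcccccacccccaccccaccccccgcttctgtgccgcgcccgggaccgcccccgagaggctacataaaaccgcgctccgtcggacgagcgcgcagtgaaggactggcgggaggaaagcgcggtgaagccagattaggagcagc
A CRE core was present in 18 of the 26 genes (69.2%), against 23.0% of all 27025 genes with a window, both strands searched and any window of a gene counted. The full site, which holds overlapping cores on both strands, was present in 3 genes, Arl4d, Btg2 and Dusp1 (11.5%, against 2.03% of all genes). A CArG box was found in Dusp5 and Egr2 (7.69%, against 1.81%). These letters contain CG pairs, and the windows of the 35-gene list held a median of 22 such pairs against 7 over all windows. A match describes the letters and is no evidence that a factor was bound.

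The mice differed in ways that bear on these genes. Arid1b itself was at 2368 ± 432 in WT-Veh mice and 2159 ± 233 in WT-Flx mice, against 1795 ± 160 in HT-Veh mice and 1636 ± 61.02 in HT-Flx mice (SD, n = 4 each). Markers of cortical glutamatergic neurons were high in every mouse, with a mean log2 level between 12.4 and 13.1 over 6 of 6 genes. The mean log2 level of 10 olfactory bulb markers, 3 of which were listed at 0 in at least 1 mouse, ran from 3.41 to 9.21 in WT-Veh mice, 4.47 to 8.73 in WT-Flx mice, 3.46 to 7.29 in HT-Veh mice and 3.14 to 4.02 in HT-Flx mice. It was highest in WT-Veh replicate 1. In bulk tissue, fewer cells of a type and less RNA per cell cannot be told apart.

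All 35 genes passed the filter on low values in each comparison. Corrected for exon length, Jund had the highest mean level (1755 normalized reads per kb of exon), followed by Arc (1475), Egr1 (1206) and Egr3 (877), and Egr2 (40.2) and Dusp4 (52.2) had the lowest. Each gene varied widely between mice. The ratio of the highest to the lowest of the 16 mice ran from 1.73 for Per1 to 15.6 for Fosb, with a median of 2.75 against 1.77 over all genes tested, and it was at least 2 for 32 of the 35. The within-group SD of log2 values had a median of 0.407, against 0.219 for all 17567 genes tested. The share of the variance that lay between groups had a median of 14.5% for these genes and 19.3% for all genes. Mice put into groups at random also give such a share, which was neither computed nor subtracted. These values alone are therefore no evidence of a group effect.

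**Figure D1:**
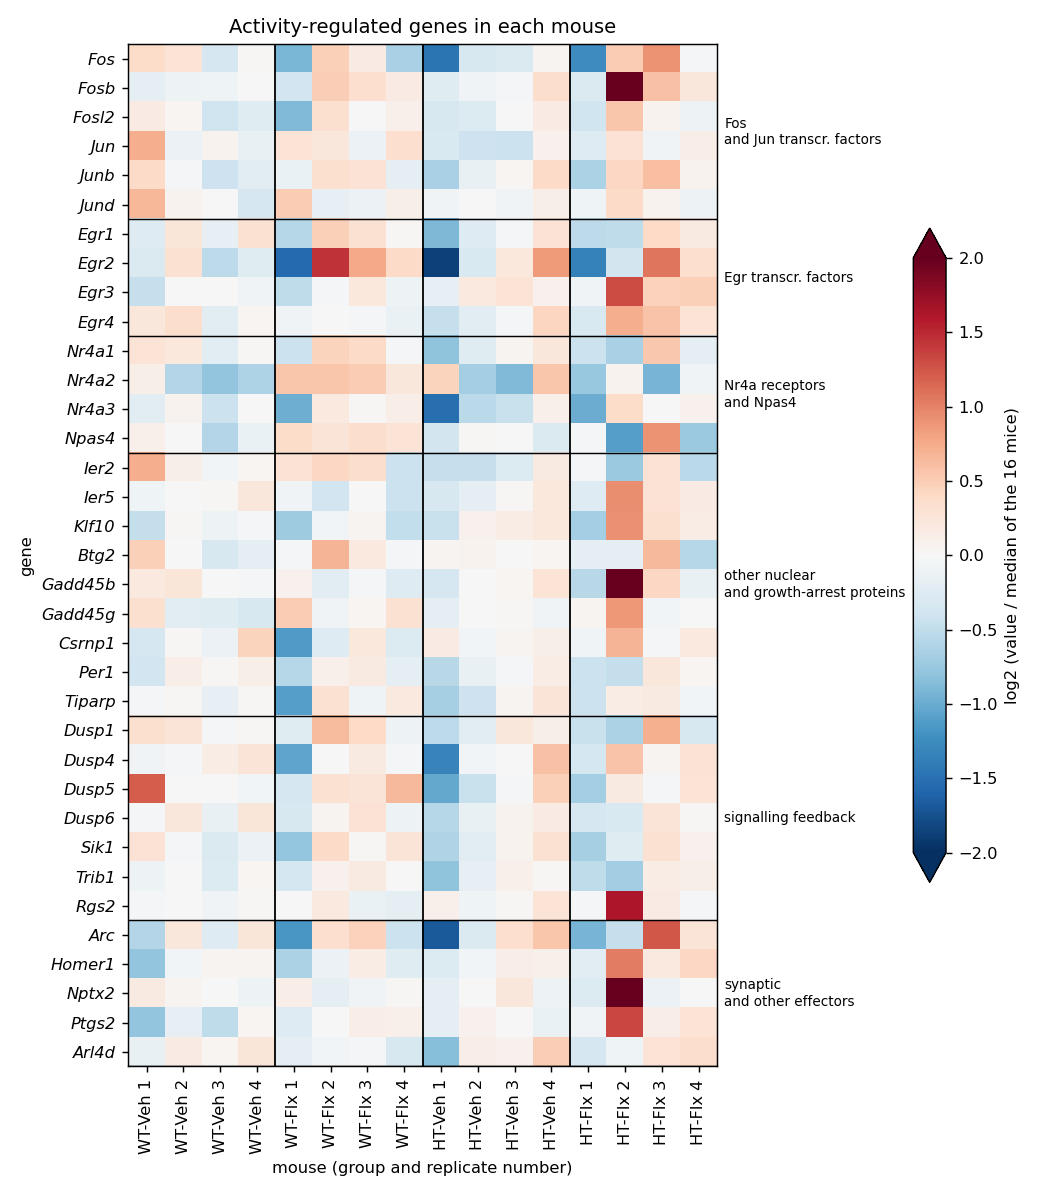
Each cell shows 1 gene in 1 mouse as log2 of its normalized read count over the median of the 16 mice, with genes ordered by role and mice by group. HT-Flx replicate 2 is far above the rest for Fosb, Nptx2, Gadd45b and Rgs2, and HT-Veh replicate 1, WT-Flx replicate 1 and HT-Flx replicate 1 are low for Fos, Egr2, Arc and Nr4a3.

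Among the Fos and Jun proteins, which pair to form the AP-1 transcription factor, Fos (chr12:85473890-85477273, plus strand) is the classical marker of recently active neurons. Fos was at 590, 553, 364 and 465 in WT-Veh replicates 1 to 4, at 244, 640, 514 and 294 in WT-Flx mice, at 168, 366, 377 and 480 in HT-Veh mice and at 193, 652, 857 and 454 in HT-Flx. All groups overlapped, and the mouse numbered 1 was the lowest of its group outside WT-Veh. Fosb (chr7:19302696-19310051, minus strand), whose truncated product is long-lived, was at 277, 291, 296 and 316 in WT-Veh mice, at 240, 438, 396 and 353 in WT-Flx mice, at 264, 297, 310 and 401 in HT-Veh mice and at 255, 3729, 472 and 366 in HT-Flx. A single HT-Flx mouse thus set the HT-Flx mean of 1205 ± 1685. Fosl2, Jun, Junb and Jund, the other members, ranged 2.02 to 2.70-fold between the highest and lowest mouse, and Jun and Jund were highest in WT-Veh replicate 1 (1373 and 4392).

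The Egr genes encode zinc finger factors of which Egr1 is widely used as a readout of neuronal activity. Egr1 was at 4562, 6434, 4872 and 6733 in WT-Veh mice, at 3650, 7605, 6720 and 5547 in WT-Flx mice, at 2922, 4555, 5339 and 6638 in HT-Veh mice and at 3802, 3830, 7166 and 6155 in HT-Flx. Egr2, a low-abundance relative that also controls myelination, varied 9.92-fold, from 32.8 in HT-Veh replicate 1 to 326 in WT-Flx replicate 2. Egr3, at 2424 to 4792 in the other 15 mice, reached 8498 in HT-Flx replicate 2. Egr4 was likewise highest there (840, others 368 to 754).

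Nr4a1, Nr4a2 and Nr4a3 are orphan nuclear receptors, and Npas4 is a neuron-specific factor that answers to calcium entry. Nr4a2 (chr2:57106830-57124003, minus strand) was at 393, 243, 209 and 237 in WT-Veh mice, at 535, 534, 517 and 423 in WT-Flx mice, at 494, 227, 196 and 533 in HT-Veh mice and at 216, 381, 191 and 345 in HT-Flx. The 4 WT-Flx mice lay above every mouse of WT-Veh and of HT-Flx, while 2 HT-Veh mice lay within the WT-Flx range. Npas4 (chr19:4984355-4990316, minus strand) was at 566, 535, 354 and 484 in WT-Veh mice, at 685, 632, 673 and 642 in WT-Flx mice, at 410, 540, 525 and 433 in HT-Veh mice and at 524, 247, 985 and 317 in HT-Flx. WT-Flx was again above WT-Veh without overlap, and HT-Flx held both the highest and the lowest of the 16 mice. Nr4a1 ran from 1323 to 3335 and Nr4a3 from 252 to 920.

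Among the other nuclear and growth-arrest proteins, Gadd45b and Gadd45g, stress proteins linked to DNA demethylation, were both highest in HT-Flx replicate 2 (817 and 351, against 139 to 270 and 155 to 276 elsewhere). Ier2, a small nuclear protein, was at 250, 164, 146 and 155 in WT-Veh mice, at 186, 202, 194 and 112 in WT-Flx mice, at 110, 110, 125 and 172 in HT-Veh mice and at 148, 91.1, 185 and 105 in HT-Flx, so that HT and WT mice overlapped. Per1, a repressor of the circadian clock that is also induced by activity, had the smallest spread, 2592 to 4494. Btg2, an antiproliferative protein, ran from 259 to 619, Klf10 from 526 to 1629, Csrnp1 from 129 to 454, Tiparp from 221 to 590 and Ier5 from 1470 to 3745.

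The feedback genes include Dusp1, Dusp4, Dusp5 and Dusp6, phosphatases of MAP kinases, Sik1, a kinase that restrains CREB coactivators, and Rgs2, which shortens G protein signaling. Dusp1 was at 844, 812, 668 and 689 in WT-Veh mice, at 571, 1048, 892 and 634 in WT-Flx mice, at 471, 586, 796 and 735 in HT-Veh mice and at 497, 436, 1115 and 542 in HT-Flx. Dusp5 was at 535 in WT-Veh replicate 1, the mouse richest in olfactory bulb markers, and at 114 to 362 in the others. Whether bulb tissue contributed was not tested. Rgs2 was at 906 to 1257 in 15 mice and at 3212 in HT-Flx replicate 2. Dusp4 (55.7 to 213), Dusp6 (1013 to 1836), Sik1 (235 to 523) and Trib1 (383 to 761) were lower in HT-Veh replicate 1 or WT-Flx replicate 1 than in any other mouse.

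The effectors act outside the nucleus. Arc (chr15:74669083-74672570, minus strand) promotes removal of AMPA receptors from synapses. Arc was at 2939, 5144, 3684 and 5225 in WT-Veh mice, at 1974, 5579, 6079 and 3287 in WT-Flx mice, at 1373, 3613, 5575 and 6474 in HT-Veh mice and at 2322, 3209, 10418 and 5266 in HT-Flx, a 7.59-fold range in which every group contained mice on both sides of the WT-Veh mean of 4248. Homer1, a scaffold of glutamate receptors whose short activity-induced form is not separated from the long form in gene totals, was at 2694, 4488, 4824 and 4844 in WT-Veh mice, at 2997, 4271, 5171 and 3957 in WT-Flx mice, at 3868, 4464, 5122 and 5007 in HT-Veh mice and at 3971, 9479, 5305 and 6202 in HT-Flx. Nptx2 (chr5:144545902-144557478, plus strand), a secreted pentraxin that gathers AMPA receptors, was at 973, 888, 857 and 800 in WT-Veh mice, at 942, 756, 818 and 872 in WT-Flx mice, at 750, 863, 1004 and 800 in HT-Veh mice and at 714, 6245, 791 and 863 in HT-Flx. Nptx2 thus lay between 714 and 1004 in the other 15 mice. Ptgs2, the inducible cyclooxygenase, ran from 217 to 945, and the small GTPase gene Arl4d from 229 to 580.

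**Figure D2:**
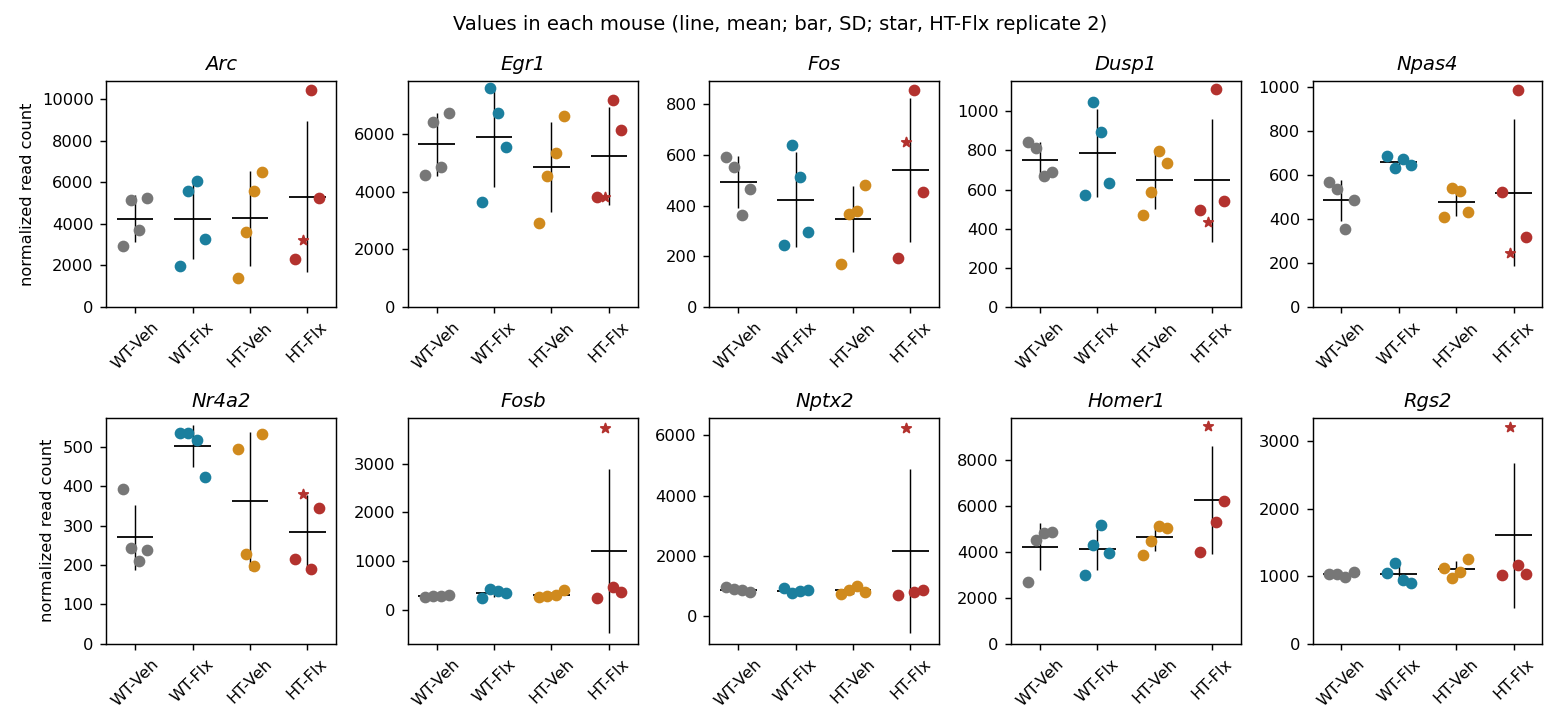
Normalized read counts of 10 genes in each mouse by group, with the mean (horizontal line) and SD (vertical line) of 4 mice; HT-Flx replicate 2 is drawn as a star. Arc, Egr1, Fos and Dusp1 overlap across groups, Nr4a2 and Npas4 of WT-Flx lie above WT-Veh, and the star stands alone for Fosb, Nptx2, Homer1 and Rgs2.

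Genotype without the drug was tested by setting HT-Veh against WT-Veh, on log2 of the value plus 1. None of the 35 genes passed an adjusted p of 0.05 in limma (0.0178% of all genes did), none had an unadjusted p under 0.05 (4.88% of all genes), and none separated the groups without overlap (3.84% of all genes). The estimates leaned downward, 25 of 35 below 0 with a median log2 change of -0.11, against 0.01 over all genes. This lean rested on HT-Veh replicate 1, without which the median was 0.05 and 22 of 35 were above 0. The smallest p belonged to Ier2 (log2 change -0.46, SE 0.21, limma p 0.0520), Jun (-0.40, SE 0.19, limma p 0.0642) and Fos (-0.58, SE 0.29, limma p 0.0746), each with an adjusted p of 0.922. Arc changed by -0.18 (SE 0.42, limma p 0.686), and by 0.30 without HT-Veh replicate 1. Without the 4 mice richest in bulb markers, an alternative chosen after seeing the data, 8 genes had an unadjusted p under 0.05 and none passed adjustment, while the number over all genes went from 822 to 1798.

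The effect of fluoxetine in mutant mice was examined by comparing HT-Flx with HT-Veh. None of the 35 passed (0% of all genes), none had an unadjusted p under 0.05 (3.07% of all genes) and none separated the groups (1.99% of all genes). Estimates were above 0 for 28 of 35, with a median log2 change of 0.19 against 0.00 over all genes. Jun (0.29, SE 0.14, limma p 0.0586), Egr3 (0.45, SE 0.22, limma p 0.0630) and Ptgs2 (0.47, SE 0.24, limma p 0.0780) had the smallest p, and Arc was at 0.30 (SE 0.50, limma p 0.560). Leaving out HT-Flx replicate 2 made most of these estimates smaller. The median was then 0.12, with 26 of 35 above 0, and Fosb went from 1.02 to 0.17, Nptx2 from 0.64 to -0.11, Rgs2 from 0.35 to -0.04, Egr3 to 0.20 and Ptgs2 to 0.16. Other mice moved the list further. Without HT-Veh replicate 1 the median was 0.03 with 18 of 35 above 0, and without HT-Flx replicate 1 it was 0.39, with 11 genes at an unadjusted p under 0.05 (939 of all genes, against 516 with every mouse). The estimate for Arc turned to -0.17 without HT-Veh replicate 1 and to -0.11 without HT-Flx replicate 3.

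In WT mice, WT-Flx was compared with WT-Veh. None of the 35 passed the adjusted threshold in limma (0% of all genes), and 2 had an unadjusted p under 0.05 (4.2% of all genes), the same 2 that separated the groups without overlap (2.89% of all genes). These were Nr4a2, with a log2 change of 0.93 (SE 0.19, limma p 0.000551, adjusted p 0.976), and Npas4, with 0.46 (SE 0.14, limma p 0.00870), both higher in 4 of 4 WT-Flx mice. Ier5 followed at -0.25 (SE 0.12, limma p 0.0624), and Arc was at -0.10 (SE 0.33, limma p 0.769). The median of the 35 was -0.01 and that of all genes 0.00. Nr4a2 passed with sample quality weights (1.08, limma adjusted p 0.0159) and without WT-Veh replicate 1 (1.12, limma adjusted p 0.0169). Over all genes, 12 passed with the weights and 4 without that mouse. The number of all genes at an unadjusted p under 0.05 was 2270 and 1714 there, against 707 with every mouse and no weights. Its log2 change ran from 0.78 to 1.19 over the alternatives run. The bulb score was also higher in all 4 WT-Flx mice (4.47 to 8.73) than in WT-Veh replicates 2 to 4 (3.41 to 4.12), though WT-Veh replicate 1 was at 9.21. Without WT-Veh replicate 1, drug and bulb score thus separated the same mice and cannot be told apart. With the bulb score as a covariate the change of Nr4a2 was 0.78 (limma adjusted p 0.633).

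Genotype was compared under fluoxetine as well. In HT-Flx versus WT-Flx none of the 35 passed in limma (0.0417% of all genes), and 4 had an unadjusted p under 0.05 (10.4% of all genes). Nr4a2 was lower in HT-Flx, at -0.88 (SE 0.21, limma p 0.00124, adjusted p 0.289), and was the only gene of the list whose groups did not overlap (5.83% of all genes). Egr3 (0.65, SE 0.24, limma p 0.0173), Homer1 (0.56, SE 0.23, limma p 0.0309) and Ier5 were higher, and Arc was at 0.22 (SE 0.43, limma p 0.614). Without HT-Flx replicate 2 the unadjusted count was 2 (1430 over all genes, against 1754 with every mouse), with Egr3 at 0.40, Homer1 at 0.33 and Nr4a2 at -1.04. Both comparisons in which Nr4a2 separated the groups share the WT-Flx mice. All 7 bulb markers tested, of 10 listed, were lower in HT-Flx at an unadjusted p under 0.05. A marker under 10 in every HT-Flx mouse was tested only where all 4 WT-Flx mice reached 10, so the filter partly set this direction. The part of bulb markers in these values was not tested beyond the covariate, with which Nr4a2 was at -0.90 (limma adjusted p 1.000).

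**Figure D3:**
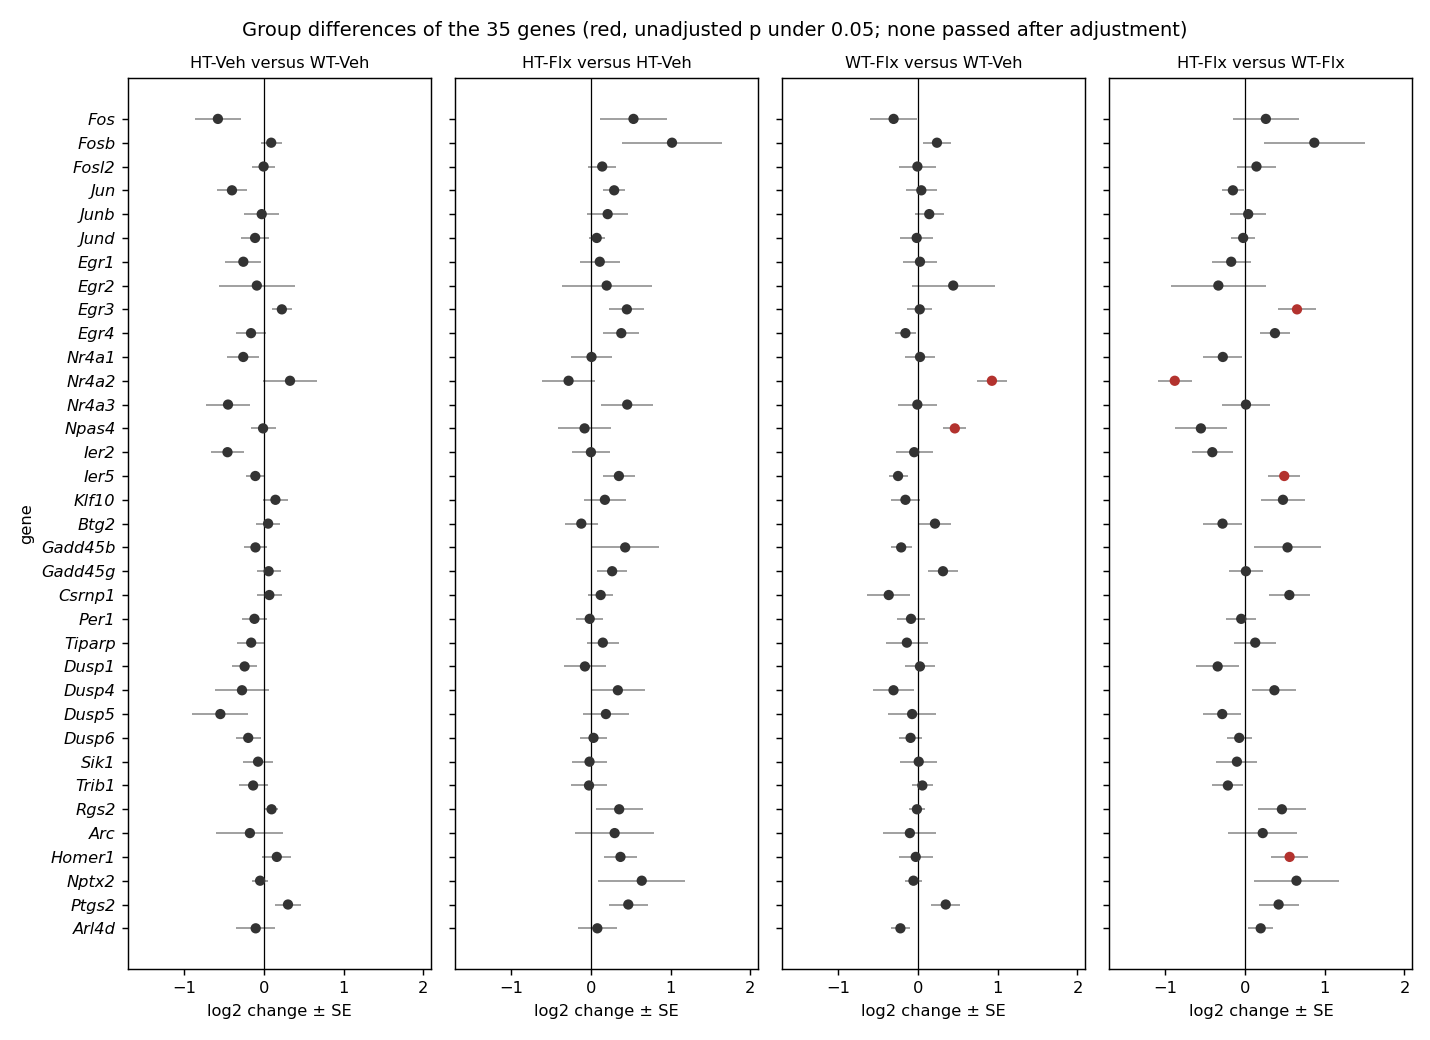
Log2 change with its SE for each of the 35 genes in the 4 comparisons between groups, 4 mice per group; red marks an unadjusted limma p under 0.05. None passed after adjustment over all genes. Nr4a2 stands out at 0.93 in WT-Flx versus WT-Veh and at -0.88 in HT-Flx versus WT-Flx, and the SE of Fosb and Nptx2 is wide wherever HT-Flx enters.

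With both treatments in 1 fit of 16 mice, genotype gave no adjusted call among the 35 (0.0398% of all genes) and 5 genes with an unadjusted p under 0.05 (11.9% of all genes), 3 higher and 2 lower in HT mice. Egr3 was at 0.44 (SE 0.15, limma p 0.0108), Ier2 at -0.43 (SE 0.17, limma p 0.0197) and Ptgs2 at 0.36 (SE 0.16, limma p 0.0382), while Arc was at 0.02 (SE 0.33, limma p 0.943). Bulb markers moved with genotype too, 5 of 10 being lower in HT mice at an unadjusted p under 0.05. With the bulb score as covariate 0 of the 35 genes had an unadjusted p under 0.05 (951 over all genes, against 2083 without it), and without the 4 mice richest in bulb markers 1 had (1428 over all genes). Without HT-Flx replicate 2, Ptgs2 was at 0.22 (limma p 0.0718). Fluoxetine over both genotypes also gave no adjusted call (0% of all genes), and 2 genes had an unadjusted p under 0.05 (3.11% of all genes). These were Ptgs2 (0.41, SE 0.16, limma p 0.0213) and Gadd45g (0.29, SE 0.13, limma p 0.0443). Fosb was at 0.63 (SE 0.38, limma p 0.115) and Arc at 0.10 (SE 0.33, limma p 0.771). Without HT-Flx replicate 2, Ptgs2 was at 0.26 (limma p 0.0323), Gadd45g at 0.19 (limma p 0.106) and Fosb at 0.21 (limma p 0.157).

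Whether the drug acted differently by genotype was tested as an interaction, the fluoxetine change in HT minus that in WT. None of the 35 passed (0% of all genes) and 2 had an unadjusted p under 0.05 (4.29% of all genes). Nr4a2 had the smallest p, with -1.21 (SE 0.43, limma p 0.0116, adjusted p 0.998): its mean went from 270 ± 82.9 to 502 ± 53.6 in WT and from 363 ± 176 to 283 ± 94.1 in HT (SD, n = 4 each). Ier5 was at 0.60 (SE 0.26, limma p 0.0343), and at 0.38 without HT-Flx replicate 2. Egr4 was at 0.54 (SE 0.29, limma p 0.0782) and Arc at 0.40 (SE 0.68, limma p 0.566). The median over the list was 0.25 against 0.00 over all genes, and it was 0.14 without HT-Flx replicate 2, 0.07 without HT-Veh replicate 1, 0.08 without WT-Flx replicate 1 and 0.47 without the 4 mice richest in bulb markers.

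HT-Flx replicate 2 was examined on its own as a description of 1 mouse, chosen after its values were seen. It had the highest value of the 16 for 14 of the 35 genes, where 12.3% of all genes had theirs. It had the lowest for 3 of the 35, where 9.36% of all genes had theirs. In 7 genes it was at least 2-fold above the median of the other 15 mice (2.59% of all genes), 12.0-fold for Fosb, 7.29-fold for Nptx2, 4.04-fold for Gadd45b, 3.11-fold for Rgs2, 2.54-fold for Ptgs2, 2.48-fold for Egr3 and 2.11-fold for Homer1. Ranked by the ratio to the highest of the other 15 mice, Fosb (7.91) and Nptx2 (6.22) were the first and second of 13834 genes with a mean of at least 50. Gadd45b was 13th and Rgs2 15th. Some other genes of the list were not high in the same mouse. Npas4 (247), Ier2 (91.1) and Dusp1 (436) were at their lowest there. Arc (3209) and Egr1 (3830) lay within the range of the others, at 0.62-fold and 0.69-fold of their median. Fos (652) also lay within that range, but at 1.44-fold of the median and near the highest of the others (857). Of 34 further activity-induced genes 17 were highest in this mouse, and 8 of these were at least 2-fold above the median. They included Bdnf, the neurotrophin (1561, others 429 to 669), Inhba, a subunit of activin (1032, others 266 to 519), Maff, Rasd1, Sertad1, Pim1, Gpr3 and Cdkn1a. Of 21 regulators upstream of immediate early genes, such as Creb1 and Srf, 6 were highest there and none reached 2-fold. Its glutamatergic, GABAergic, astrocyte, oligodendrocyte, microglia and striatum markers and its bulb score (4.02) lay within the range of the other mice, while its endothelial (9.98, others 10.03 to 10.31) and red blood cell marker levels (8.27, others 8.35 to 9.80) were the lowest on the log2 scale.

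Co-variation between the genes was measured on log2 values after removal of group means. Over the 595 pairs of the 35 genes the median Pearson r was 0.365 and 78.5% of pairs were positive, against a median of 0.00 and 49.9% over all pairs of genes tested. Points in each pair are the same 16 libraries, and share their normalization and tissue makeup. Leaving out HT-Flx replicate 2 raised the median to 0.464. The genes that followed Arc most closely were Dusp6 (r 0.963), Egr1 (0.961), Per1 (0.949), Egr2 (0.928), Trib1 (0.898), Nr4a1 (0.886), Arl4d (0.838), Dusp1 (0.824) and Fos (0.807). These 9 of 34 genes had an r of at least 0.8, as did 0.171% of all other genes tested. Without HT-Flx replicate 2 the number was 14, with Klf10 at 0.940, Fosb at 0.883 and Egr3 at 0.817. Correlations over all genes were not computed without that mouse. At the other end, Gadd45g (-0.41), Jund (-0.36), Nr4a2 (-0.30), Nptx2 (-0.18), Jun (-0.17) and Rgs2 (-0.10) ran below 0.

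For 6 genes the relation to Arc was tested by permutation within groups, two-sided, with p adjusted over the 6 pairs. Group means were removed first and replicate number was not. Egr1 passed with Pearson r 0.961 and Spearman rho 0.918 (permutation adjusted p 0.000180 and 0.000480, n = 16), and its r was 0.952 without the 2 mice farthest from the median of Arc, HT-Flx replicate 3 and HT-Veh replicate 1 (permutation p 0.000240). Dusp1 passed with r 0.824 and rho 0.847 (permutation adjusted p 0.00519 and 0.00573), as did Fos with r 0.807 and rho 0.732 (permutation adjusted p 0.00678 and 0.0190). Without those 2 mice r was 0.682 for Dusp1 (permutation p 0.0534) and 0.649 for Fos (permutation p 0.0724), so that neither passed. The p without the 2 mice are unadjusted. Leaving out mice at the extremes of Arc also narrows its range, and the part of this in the lower r was not tested. Homer1 (r 0.451, rho 0.485, permutation adjusted p 0.163 and 0.110) did not pass with all mice, and did without HT-Flx replicate 2 (r 0.720, permutation adjusted p 0.00400) or HT-Flx replicate 3 (r 0.607, permutation adjusted p 0.0154). Without the 2 mice farthest from the median its r was 0.636 (permutation p 0.0373). Npas4 (r 0.365, rho 0.118, permutation adjusted p 0.390 and 0.715) and Nptx2 (r -0.18, rho -0.20, permutation adjusted p 0.660 and 0.600) showed no relation that passed, and without the 2 mice their r was -0.30 (permutation p 0.376) and -0.11 (permutation p 0.736).

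**Figure D4:**
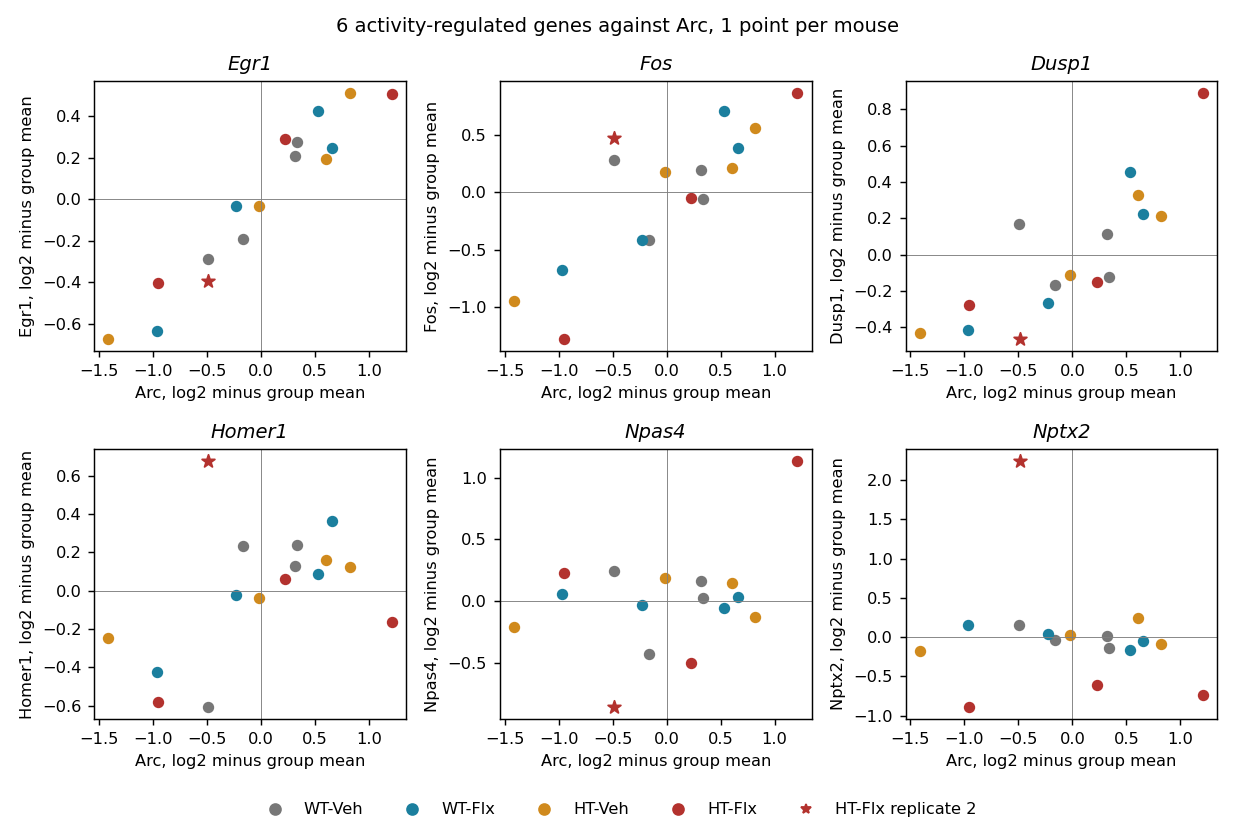
Log2 values minus the group mean for 6 genes (vertical axes) against Arc (horizontal axes), 1 point per mouse colored by group, with HT-Flx replicate 2 as a star. Egr1, Fos and Dusp1 are higher where Arc is higher (r 0.961, 0.807 and 0.824), and the star lies far above the other points for Homer1 and Nptx2.

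**Figure D5:**
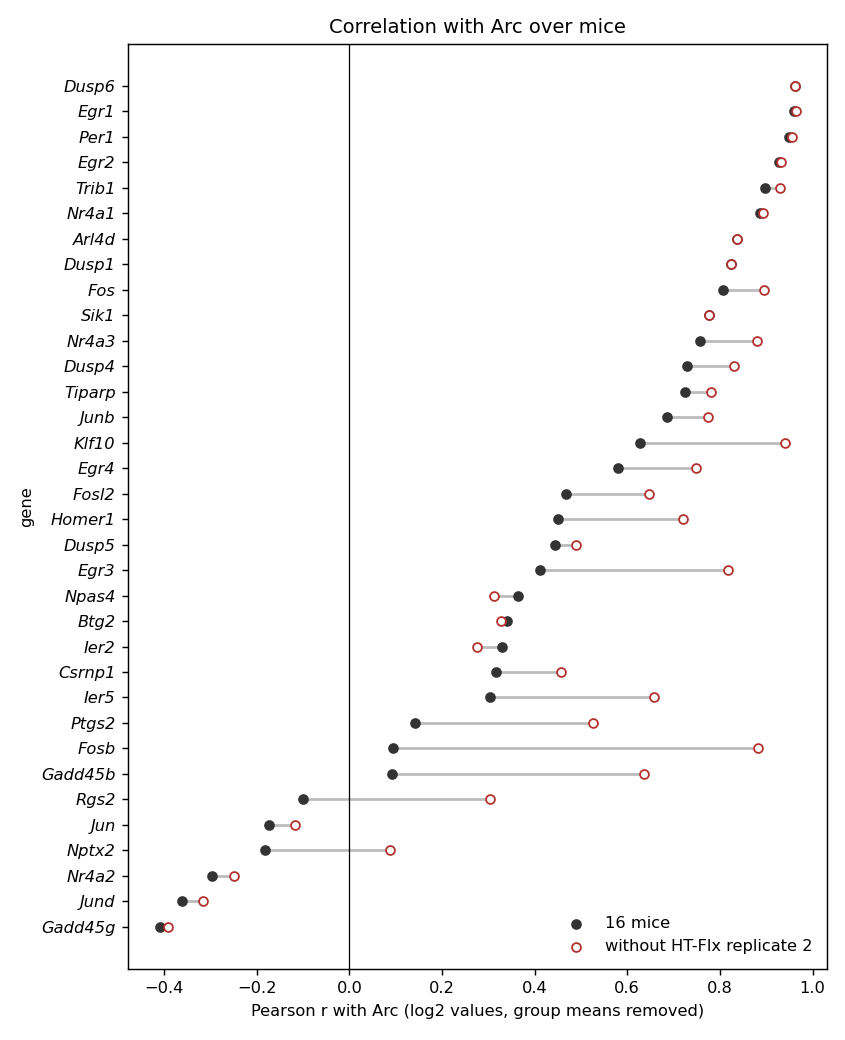
Pearson r of each of the other 34 genes with Arc over 16 mice (filled) and over 15 mice without HT-Flx replicate 2 (open), log2 values with group means removed. Fosb moves from 0.094 to 0.883 and Egr3 from 0.413 to 0.817 between these points, while Egr1, Dusp6 and Per1 stay above 0.9.

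The low end of the Arc axis was held by few mice, and in every group the mouse numbered 1 had the lowest Arc value. What part replicate number had in the correlations with Arc was not tested. HT-Veh replicate 1 had the lowest value of all 16 for 13 of the 35 genes (4.58% of all genes had theirs there), and WT-Flx replicate 1 for 8 (12.8% of all genes). At the high end, HT-Flx replicate 3 had the highest value for 7 genes, Arc, Fos and Dusp1 among them (6.70% of all genes). The hour at which each mouse was collected is not given in the sources used here. After group means were removed, the mean level of 15 clock and clock output genes correlated with the mean of the 35 genes at r 0.54, that of 10 glucocorticoid-induced genes at 0.48 and that of the 34 further activity-induced genes at 0.69, over the same 16 libraries, against 0.15 for the bulb score. Their part in the co-variation was not tested.

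Outside the list, the gene most like the mean of the 35 was Gm37376 (r 0.888, 1.25 to 38.4 normalized reads), a transcript still to be experimentally tested. Nab2, a corepressor of Egr proteins that also stands on the list of further activity-induced genes, had r 0.870 (723 to 1324), followed by Etaa1 at 0.838 (214 to 272), Zfp667 at 0.836 (305 to 676) and Midn, a nuclear protein, at 0.835 (1036 to 1795), and then by Mcl1, Spty2d1, Mex3c, Sde2 and Efnb1. The ranking was over 16 libraries and 17567 genes.

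None of the genes of the pathway and marker lists passed the adjusted threshold in limma in any comparison, and the gene with the smallest p is given for the pathway lists, except in 1 comparison. Of the 21 upstream regulators, 3 had an unadjusted p under 0.05 in HT-Veh versus WT-Veh (4.88% of all genes), all higher. In HT-Flx versus WT-Flx there were 2 (10.4% of all genes), both higher, led by Crtc1, a CREB coactivator (0.40, SE 0.10, limma p 0.0021). The genotype fit had 4 (11.9% of all genes), all higher, led by Crtc1 (0.29, SE 0.09, limma p 0.00462). The other comparisons had 0 (3.07% to 4.29% of all genes). Elk4 (-0.17, SE 0.09, limma p 0.0848) was first in HT-Flx versus HT-Veh and Mapk3 (0.26, SE 0.14, limma p 0.0997) in WT-Flx versus WT-Veh. Mapk3 (0.16, SE 0.08, limma p 0.0715) was first for fluoxetine and Elk4 (-0.26, SE 0.13, limma p 0.0562) for the interaction.

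Among the further activity-induced genes, HT-Veh versus WT-Veh had 2 at an unadjusted p under 0.05 (4.88% of all genes), led by Plk2, a kinase that weakens synapses (0.23, SE 0.06, limma p 0.00469). The genotype fit also had 2 (11.9% of all genes), led by Plk2 (0.18, SE 0.06, limma p 0.00426). HT-Flx versus HT-Veh had 2 (3.07% of all genes), led by Crem, a CREB relative (0.35, SE 0.14, limma p 0.0267). There 31 of 34 estimates were above 0, against 51.2% of all genes. Of the 34 genes, 17 were highest in HT-Flx replicate 2, Crem among them (365, others 203 to 334). The part of this mouse in the lean was not tested. WT-Flx versus WT-Veh had 1 (4.2% of all genes), Ier3 (-0.33, SE 0.14, limma p 0.0405), and HT-Flx versus WT-Flx had 3 (10.4% of all genes), led by Cebpd (-0.53, SE 0.21, limma p 0.0268). The fluoxetine fit had 1 (3.11% of all genes), Maff (0.79, SE 0.33, limma p 0.0267), and so did the interaction (4.29% of all genes), Crem (0.59, SE 0.18, limma p 0.00512). Maff was at 94.9 in HT-Flx replicate 2 and at 6.37 to 36.6 in the other mice.

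The clock list had 1 or 2 of 15 genes at an unadjusted p under 0.05 in each comparison (3.07% to 11.9% of all genes). These were led by Ciart (0.22, SE 0.08, limma p 0.0229) in HT-Veh versus WT-Veh and Ciart (-0.35, SE 0.10, limma p 0.00358) in HT-Flx versus HT-Veh, by Cry1 (0.23, SE 0.09, limma p 0.0319) in WT-Flx versus WT-Veh and Tef (0.35, SE 0.09, limma p 0.00235) in HT-Flx versus WT-Flx. Npas2 (0.34, SE 0.10, limma p 0.004) led for genotype, Cry1 (0.27, SE 0.11, limma p 0.0186) for fluoxetine and Ciart (-0.37, SE 0.16, limma p 0.0353) for the interaction. Of the 10 glucocorticoid-induced genes, 3 reached that p in HT-Flx versus WT-Flx (10.4% of all genes), led by Mt1, a metallothionein (-0.39, SE 0.11, limma p 0.00519). The interaction had 2 (4.29% of all genes), led by Sult1a1 (-0.66, SE 0.28, limma p 0.0279), and HT-Flx versus HT-Veh had 1 (3.07% of all genes), Sult1a1 (-0.49, SE 0.21, limma p 0.0395). None did elsewhere (3.11% to 11.9% of all genes). Sult1a1 (0.17, SE 0.13, limma p 0.211) was first in HT-Veh versus WT-Veh and Mt1 (0.30, SE 0.18, limma p 0.122) in WT-Flx versus WT-Veh. Pdk4 (0.13, SE 0.09, limma p 0.166) was first for genotype and Sult1a1 (-0.16, SE 0.16, limma p 0.326) for fluoxetine.

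Of the 9 marker lists, the olfactory bulb list had the most genes at an unadjusted p under 0.05. These were 7 of 7 tested in HT-Flx versus WT-Flx (10.4% of all genes), led by Eomes (-5.12, limma p 0.000202), and 5 of 10 for genotype (11.9% of all genes), all lower in HT. A marker under 10 in every HT-Flx mouse was tested against WT-Flx only where all 4 WT-Flx mice reached 10. The filter thus partly set the direction of the 7. Microglia markers had 3 of 6 for genotype (11.9% of all genes), all higher in HT, and every other marker list had at most 2 in any comparison (3.07% to 11.9% of all genes).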

How the data were processed

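RNA was measured in 16 mPFC samples. Per the labels and the methods of the study, stranded poly-A libraries were quantified with Salmon (1.1.0) on GRCm38, and the deposited signal is the normalized read count that the authors obtained with DESeq2 (1.30.1). The values are not whole multiples of a read, so the depth is unknown and no counting interval is given. Groups and replicate numbers came from the sample titles. Nothing states that the mice came from separate litters, so p-values measure the spread between these mice.

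Log2(value + 1) was tested with limma (3.58.1, R 4.3.3; lmFit, eBayes with trend) over genes with at least 10 in at least 4 samples of the fit. Pairwise fits used the 8 mice compared, while genotype, fluoxetine and interaction fits used 16. P was adjusted by Benjamini-Hochberg over all genes tested, with a threshold of 0.05, and the script was tested on simulated data. A log2 change understates that of low genes. Correlations with Arc used 100000 permutations within groups (20000 with a mouse left out). Symbols and positions came from GENCODE vM21, and the promoters of Arc, Dusp4, Egr1, Egr3, Ier2, Klf10, Nptx2, Sik1 and Trib1 were not analysed here.

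The genes and the lists were chosen with earlier results of these data known. Every gene of the list could be named, with tests for the 3 smallest p in each comparison and Arc, and outside it the 10 genes most like their mean (5 with values) and the gene with the smallest p of each other list in each comparison, which for the marker lists is left to counts. Some results are not reported here. Alternatives were pseudocounts of 0.1 and 8, no filter, a mean of at least 100, upper quartile and quantile scaling, quality weights, the replicate block, the bulb score as covariate, all 4 groups in the fit, each mouse left out and, chosen after seeing the data, leaving out the 4 mice richest in bulb markers.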

Additional observations from a re-analysis of the deposited data

Results flagged for a closer look

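Each of the 35 genes was examined in each group of 4 for a mouse whose log2 value lay far from the other 3 (gap over range above Dixon's 95% critical value), and 9 of 140 such sets (6.43%) held one. Chance gives about 1 in 20. In HT-Flx replicate 2 these were Nptx2 at 6245 (others of its group 714 to 863), Rgs2 at 3212 (1021 to 1164) and Gadd45g at 351 (186 to 201). In WT-Veh replicate 1, the mouse with the highest bulb score, they were Dusp5 at 535 (224 to 233), Homer1 at 2694 (4488 to 4844) and Gadd45g at 240 (155 to 167). In WT-Flx they were Nr4a3 at 365 in replicate 1 (728 to 822), and Nr4a2 at 423 (517 to 535) and Ier2 at 112 (186 to 202) in replicate 4. Fosb in HT-Flx replicate 2 did not meet this criterion because the other 3 mice were themselves spread.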

How the results depend on the processing

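Of the 7 counts of genes past the adjusted threshold, 6 were 0 under every alternative run. WT-Flx versus WT-Veh gave 1 gene, Nr4a2, with sample quality weights (12 over all genes). It also did when mice were left out in turn (0 to 1, the 1 without WT-Veh replicate 1, with 4 over all genes). The replicate block gave 0 adjusted calls in all 7 comparisons, with 7 in place of 0 genes at an unadjusted p under 0.05 in HT-Flx versus HT-Veh (593 in place of 516 over all genes), 8 in place of 4 in HT-Flx versus WT-Flx (1979 in place of 1754) and 4 in place of 2 in WT-Flx versus WT-Veh (1237 in place of 707). Over all alternatives, genes of the list at an unadjusted p under 0.05, with the number over all genes tested in parentheses, ran 0 to 8 (554 to 1798) in HT-Veh versus WT-Veh, 0 to 11 (328 to 939) in HT-Flx versus HT-Veh, 1 to 9 (447 to 2270) in WT-Flx versus WT-Veh, 2 to 9 (344 to 2241) in HT-Flx versus WT-Flx, 0 to 9 (951 to 2575) for genotype, 1 to 3 (370 to 1106) for fluoxetine and 1 to 6 (534 to 1952) for the interaction. The numbers were not taken as pairing, since mean correlations of same-numbered mice over all genes were 0.01 to 0.13 and in 0 of 6 pairs of groups did every pair exceed 0.1. Over the 35 genes alone these means were -0.07 to 0.41, highest between HT-Flx and HT-Veh (-0.13 for other numbers), and every pair of groups had a same-numbered pair below 0. Of the 35 genes 25 were lowest in a mouse numbered 1, as were 37.7% of all genes. Nothing in the labels says what the numbers share. Signs reversed for Arc, whose log2 change passed in no comparison. With the bulb covariate it was at 0.16 in WT-Flx versus WT-Veh, -0.65 in HT-Flx versus WT-Flx and -0.13 for genotype. With quality weights it was at 0.028 in WT-Flx versus WT-Veh and -0.32 for genotype. For genotype it was also at -0.00297 with quantile scaling and -0.15 without the 4 mice richest in bulb markers. Leaving out mice in turn, it ran from -0.45 to 0.30 in HT-Veh versus WT-Veh, -0.17 to 0.62 in HT-Flx versus HT-Veh, -0.32 to 0.22 in WT-Flx versus WT-Veh, -0.18 to 0.54 in HT-Flx versus WT-Flx, -0.18 to 0.26 for genotype, -0.13 to 0.26 for fluoxetine and -0.073 to 0.72 for the interaction. The median r between the 35 genes was 0.429 with the bulb score also removed and 0.301 to 0.464 with a mouse left out. Without the 2 mice farthest from the median of Arc, r with Arc was 0.649 for Fos, 0.682 for Dusp1 and -0.302 for Npas4. With a mouse left out it was 0.744 to 0.896 for Fos (permutation adjusted p 0.0539 without HT-Veh replicate 1), -0.0577 to 0.469 for Npas4, 0.318 to 0.720 for Homer1 and -0.394 to 0.0869 for Nptx2. The cause of these shifts was not tested. Depth could not be recovered, so counting error is not separated from the spread between mice.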
